A study of Homo sapiens with 9 samples.

Results

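The bone morphogenetic protein (BMP) and inhibitor of DNA binding (ID) genes described here were 10 genes of the HT29 count table. They were the ligands BMP2, BMP4 and BMP7, the receptor BMPR2, the inhibitors SMAD6 and BAMBI, and the transcriptional regulators ID1, ID2, ID3 and ATOH8. They were found by their symbols, 10 of the 25886 symbols in the table, and all 10 were among the 16660 genes with enough counts to be tested. The set had been chosen by what earlier results on these same counts showed, namely higher or lower read counts in the knockdown libraries. The members' values are therefore given as a description, with no p.

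The libraries came from HT29, an established human colorectal cancer cell line. There were 3 groups of 3 libraries each, DNMT1 knockdown, DNMT3B knockdown and Control, and cells of all groups had been through puromycin selection. The knockdowns were stable, delivered by lentivirus, and written shDNMT1 and shDNMT3B in the study's design text. DNMT1 is the maintenance DNA methyltransferase and DNMT3B is one of the de novo methyltransferases, and the study asked what lowering each does to the transcriptome, in connection with proteasome inhibition. The Control columns of the count table are named shCTR, a control construct whose sequence and target are not given. How many hairpins were used and whether the lines were pools or single clones is not stated in the labels. The labels do not say that the replicates came from separate cultures, so the p-values below measure only the spread between these libraries.

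BMPs are secreted ligands of the TGF-beta family. They bring together type I receptors such as BMPR1A and type II receptors such as BMPR2, the type I receptor phosphorylates SMAD1, SMAD5 and SMAD9, and these enter the nucleus with SMAD4. ID1, ID2, ID3, SMAD6, SMAD7 and ATOH8 are well-known genes switched on by that complex. SMAD6 then inhibits the BMP branch, and BAMBI, a receptor-like membrane protein with no kinase domain, dampens TGF-beta and BMP signals. ID proteins lack the DNA-binding region of other helix-loop-helix factors and keep their E protein partners (TCF3, TCF4, TCF12) from binding DNA. In the intestine, BMP signals are strongest towards the crypt top, where they favour differentiation.

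In DNMT1 knockdown cells, ID1, ID2, ID3, SMAD6, BAMBI, ATOH8 and BMP7 lay above Control in all 3 libraries, by 1.29-fold (ID1) to 2.1-fold (BMP7), while BMP2 lay below it. In DNMT3B knockdown cells, ATOH8 was at 40.2% of Control, SMAD6 at 58% and ID1 at 80.6%, while BMP7 was 1.53-fold and ID2 1.14-fold higher. SMAD6, ID1 and ATOH8 therefore lay on opposite sides of Control in the knockdowns, as did ID3, whose margin in DNMT3B knockdown was about the size of its standard error. ID2, BMP7 and, by smaller margins, BMP4 lay above Control in both. Between the knockdowns the widest gaps were 3.34-fold for ATOH8 and 3.06-fold for SMAD6, both higher in DNMT1 knockdown.

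Sequences before the RefSeq starts of SMAD6, ID1 and ATOH8 are shown because these 3 members lay above Control in DNMT1 knockdown and below it in DNMT3B knockdown by several standard errors each. They come from RefSeq (GRCh38.p14, plus strand) and start 250 bases before the RefSeq gene start, at chr15:66701986-66702235 for SMAD6, chr20:31605039-31605288 for ID1 and chr2:85753741-85753893 for ATOH8. The ATOH8 stretch lies inside the gene as GENCODE v29 annotates it, since that annotation starts ATOH8 further upstream, at 85751344. It was kept to 153 bases because the rest overlaps an exon in GENCODE. Capitals mark GGAGCC, a GC-rich element bound by SMAD1 and SMAD5, on either strand (GGCTCC in ID1), and in SMAD6 also GTCTAGAC, the palindrome of the SMAD box GTCT.
SMAD6: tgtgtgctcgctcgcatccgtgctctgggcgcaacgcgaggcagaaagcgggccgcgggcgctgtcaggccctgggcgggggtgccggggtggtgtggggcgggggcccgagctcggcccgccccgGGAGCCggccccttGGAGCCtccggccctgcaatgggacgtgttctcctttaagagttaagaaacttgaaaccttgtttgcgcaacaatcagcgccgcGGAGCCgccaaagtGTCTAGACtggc
ID1: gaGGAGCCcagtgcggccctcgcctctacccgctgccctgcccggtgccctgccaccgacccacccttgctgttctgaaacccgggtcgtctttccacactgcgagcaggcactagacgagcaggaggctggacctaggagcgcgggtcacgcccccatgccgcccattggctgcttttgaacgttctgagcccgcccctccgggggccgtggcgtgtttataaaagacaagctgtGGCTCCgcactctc
ATOH8: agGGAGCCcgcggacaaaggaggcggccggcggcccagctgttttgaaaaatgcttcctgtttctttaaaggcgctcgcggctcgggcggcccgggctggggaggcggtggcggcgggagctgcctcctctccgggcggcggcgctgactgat
A match is a run of letters, not a measured site. GGAGCC was in 36% and GTCTAGAC in 0.202% of the 35116 human promoter windows that were searched. Windows of BMP4, BMPR2, BAMBI and ID3 held GGAGCC too, although these members did not move that way by several standard errors each.

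Libraries held 23.4 to 24.2 M counts in DNMT1 knockdown, 18.8 to 26 M in DNMT3B knockdown and 26.9 to 33.7 M in Control. Levels below are in CPM, the count divided by the scaled library size in M, and 3 counts, the limit that a count of 0 allows, came to 0.0895 to 0.162 CPM. DNMT1 had 252 ± 4.68 CPM in DNMT1 knockdown, 488 ± 1.95 in DNMT3B knockdown and 458 ± 10.3 in Control (SD, n = 3 each), so DNMT1 knockdown left 55% of the Control level (log2 fold change -0.86 ± 0.033 SE, edgeR adjusted p = 2.83e-20). DNMT3B had 64.2 ± 0.324 CPM in DNMT1 knockdown, 30.5 ± 2.45 in DNMT3B knockdown and 61.3 ± 1.17 in Control, 49.9% of Control in its own knockdown (log2 fold change -1 ± 0.047 SE, edgeR adjusted p = 1.49e-17). Among 11 colon epithelial markers, summed at 2530 to 2650, 2550 to 2790 and 2410 to 2520 CPM in DNMT1 knockdown, DNMT3B knockdown and Control, CDX1 and CEACAM5 were at or near 0. LGALS4 had at most 0.495 CPM in any library. VIL1 averaged 0.904, 0.893 and 0.904 CPM and KRT20 1.63, 2.02 and 1.03 CPM in the same order. The sums came mostly from KRT8, KRT18, KRT19, EPCAM and CDH1. Of the 8 markers that were tested, 3 rose in DNMT1 knockdown (CDH1, KRT19, KRT20), 3 rose in DNMT3B knockdown (CDH1, KRT8, KRT20) and EPCAM fell in both. That was 50% of them in each knockdown at an adjusted p below 0.05, near the 41.8% and 47.7% of all tested genes. EPCAM averaged 249, 235 and 285 CPM and CDH1 182, 163 and 147 CPM in the same order. The 7 leukocyte markers summed to 18.3 to 19.6, 31.1 to 35.9 and 17.9 to 19.2 CPM in the same order, mostly through CD68, with PTPRC at or below 0.204 CPM. The 7 stromal markers summed to 23.5 to 28.4, 32.5 to 33.7 and 20.7 to 25.6 CPM, mostly COL1A1, with COL1A2 and DCN at 0 in all 9 libraries. Both sums were thus highest in DNMT3B knockdown, and their part in the results below was not tested.

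Per length of exon, as CPM per kilobase (RPKM), the members spanned a wide range. In Control the order was BMP4 (176 ± 1.57), ID1 (132 ± 0.212), ID3 (26.7 ± 0.471), ID2 (12.9 ± 0.536), BMPR2 (5.53 ± 0.0982), BAMBI (4.11 ± 0.326), SMAD6 (1.45 ± 0.069), BMP7 (0.678 ± 0.026), BMP2 (0.482 ± 0.0556) and ATOH8 (0.452 ± 0.0497 RPKM, SD, n = 3 for each). BMP2 and ATOH8, neighbours at the low end, did not differ beyond their spread. In DNMT1 knockdown, BAMBI at 6.03 ± 0.298 RPKM stood beside BMPR2 at 5.63 ± 0.142 RPKM, a gap within their spread, and ATOH8 at 0.605 ± 0.0453 RPKM was above BMP2 at 0.31 ± 0.0871 RPKM. In DNMT3B knockdown, BMP7 at 1.04 ± 0.0274 RPKM was above SMAD6 at 0.841 ± 0.032 RPKM. In bulk RNA such as this, fewer cells expressing a gene and less RNA per cell cannot be told apart.

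**Figure D1:**
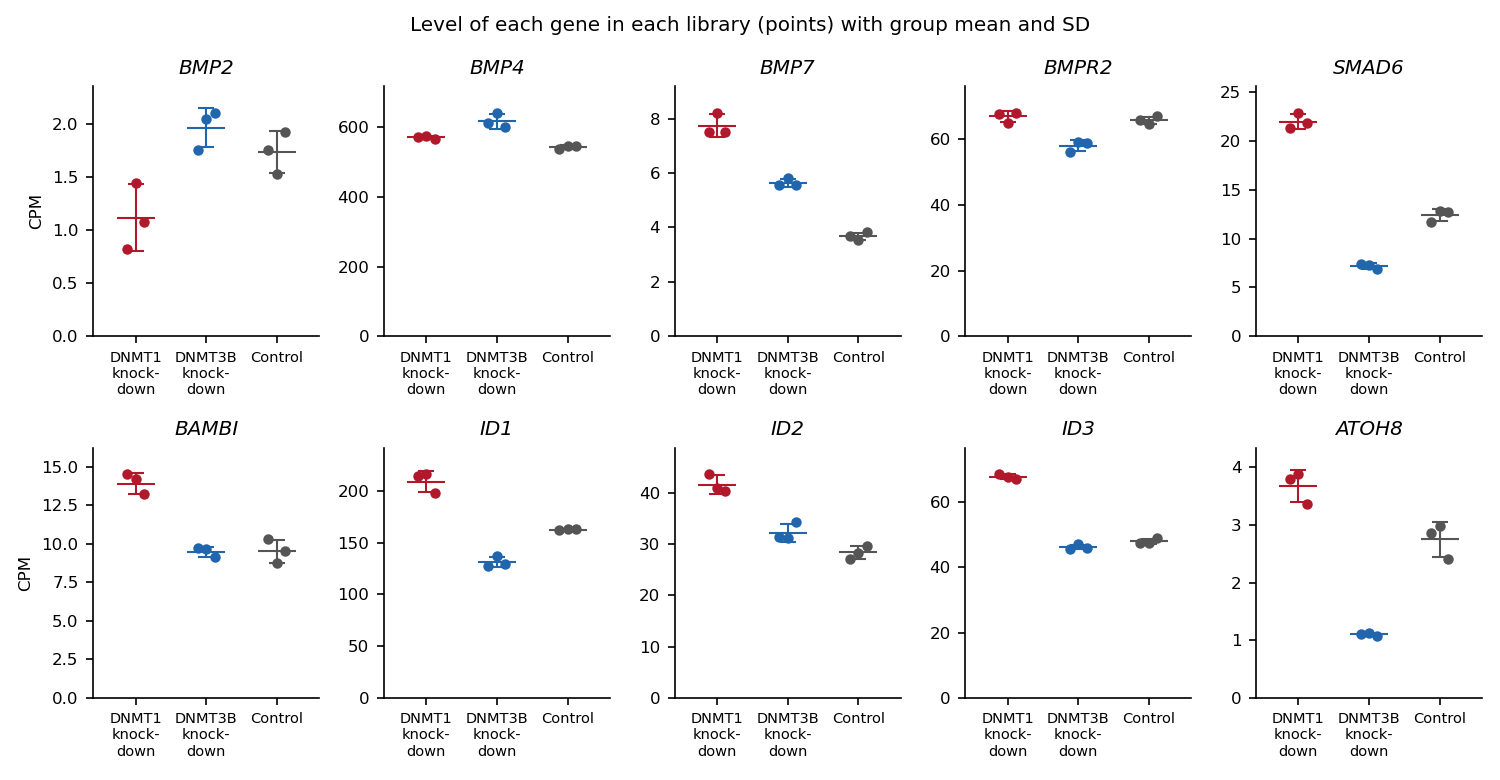
Levels of the 10 genes in CPM, one point per library, with the mean and SD (n = 3) for DNMT1 knockdown, DNMT3B knockdown and Control from left to right in each panel. The SMAD6, ID1 and ATOH8 points lie highest in DNMT1 knockdown and lowest in DNMT3B knockdown, and the BMP4, BMP7 and ID2 points are lowest in Control.

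BMP4, a ligand made by many epithelia and mesenchymal cells, was the most abundant member per length (chromosome 14, 53949736 to 53958761, minus strand; positions here and below are from GENCODE v29 on GRCh38). It had 571, 576 and 567 CPM in the DNMT1 knockdown libraries, 612, 642 and 600 CPM in DNMT3B knockdown and 538, 547 and 546 CPM in Control. Every knockdown library was above every Control library. The differences were small, with log2 fold changes of 0.07 ± 0.033 for DNMT1 knockdown and 0.18 ± 0.033 for DNMT3B knockdown against Control (SE, as after every log2 fold change below).

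BMP7, a ligand of the same family, moved furthest from Control among the ligands (chromosome 20, 57168748 to 57266629, minus strand). Its values were 7.51, 8.22 and 7.52 CPM in DNMT1 knockdown, 5.56, 5.81 and 5.55 CPM in DNMT3B knockdown and 3.67, 3.54 and 3.82 CPM in Control. The 3 groups formed separate steps with no overlap. On the log2 scale the fold change was 1.07 ± 0.097 for DNMT1 knockdown against Control, 0.61 ± 0.105 for DNMT3B knockdown against Control and 0.46 ± 0.094 for DNMT1 against DNMT3B knockdown. Of all tested genes, 1.73% had a larger absolute log2 fold change in DNMT1 knockdown against Control.

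BMP2, the remaining ligand, was near the low end of the range (chromosome 20, 6767664 to 6780280, plus strand). It had 20, 34 and 26 counts in the DNMT1 knockdown libraries, 43, 38 and 55 in DNMT3B knockdown and 59, 41 and 60 in Control, or 0.825, 1.45 and 1.08 CPM, 1.76, 2.05 and 2.11 CPM, and 1.76, 1.53 and 1.93 CPM in the same order. The DNMT1 knockdown libraries were lowest, although the second of them came close to the lowest Control library, and the DNMT3B knockdown and Control libraries overlapped. This gave a log2 fold change of -0.65 ± 0.198 for DNMT1 knockdown and 0.17 ± 0.174 for DNMT3B knockdown against Control, with standard errors several times those of the abundant members.

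BMPR2, the type II receptor of these ligands, differed little (chromosome 2, 202376936 to 202567751, plus strand). It had 67.8, 65.1 and 68.1 CPM in DNMT1 knockdown, 56.1, 59.3 and 58.8 CPM in DNMT3B knockdown and 65.8, 64.6 and 67 CPM in Control. DNMT1 knockdown and Control libraries overlapped, and the DNMT3B knockdown libraries all lay below both. Its log2 fold change against Control was 0.03 ± 0.039 for DNMT1 knockdown and -0.18 ± 0.04 for DNMT3B knockdown.

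SMAD6, the inhibitory SMAD of the BMP branch, had separate levels in all 3 groups (chromosome 15, 66702228 to 66782848, plus strand). It had 21.3, 22.9 and 21.9 CPM in DNMT1 knockdown, 7.4, 7.32 and 6.89 CPM in DNMT3B knockdown and 11.7, 12.8 and 12.7 CPM in Control. Each knockdown's libraries stood clear of Control, on opposite sides. Log2 fold changes were 0.83 ± 0.062 for DNMT1 knockdown against Control, -0.79 ± 0.078 for DNMT3B knockdown against Control and 1.61 ± 0.073 between the knockdowns. In that last comparison 0.402% of tested genes had a larger absolute log2 fold change.

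BAMBI, the pseudoreceptor, differed from Control in DNMT1 knockdown and overlapped with it in DNMT3B knockdown (chromosome 10, 28677342 to 28682939, plus strand). Its values were 14.5, 14.2 and 13.2 CPM in DNMT1 knockdown, 9.69, 9.63 and 9.11 CPM in DNMT3B knockdown and 10.3, 8.75 and 9.53 CPM in Control. Log2 fold changes were 0.55 ± 0.074 for DNMT1 knockdown against Control, -0.01 ± 0.08 for DNMT3B knockdown against Control and 0.56 ± 0.078 between the knockdowns.

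ID1 was the most abundant of the ID genes (chromosome 20, 31605283 to 31606515, plus strand). It had 214, 216 and 198 CPM in DNMT1 knockdown, 127, 137 and 129 CPM in DNMT3B knockdown and 162, 163 and 163 CPM in Control. All DNMT1 knockdown libraries were above and all DNMT3B knockdown libraries below the tightly grouped Control libraries. Log2 fold changes were 0.37 ± 0.036 for DNMT1 knockdown against Control, -0.31 ± 0.037 for DNMT3B knockdown against Control and 0.68 ± 0.037 between the knockdowns.

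ID3 was above Control in DNMT1 knockdown and close to Control in DNMT3B knockdown (chromosome 1, 23557918 to 23559794, minus strand). It had 68.6, 67.8 and 67.1 CPM in DNMT1 knockdown, 45.8, 47.1 and 46.1 CPM in DNMT3B knockdown and 47.4, 47.6 and 49 CPM in Control. The DNMT3B knockdown and Control libraries did not overlap, but the log2 fold change of -0.05 ± 0.041 was about the size of its standard error. Against Control, DNMT1 knockdown had a log2 fold change of 0.5 ± 0.039, and against DNMT3B knockdown 0.55 ± 0.041.

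ID2 differed from ID1 in its direction in DNMT3B knockdown (chromosome 2, 8678845 to 8684453, plus strand). It had 43.7, 41 and 40.4 CPM in DNMT1 knockdown, 31.4, 31.2 and 34.4 CPM in DNMT3B knockdown and 27.2, 28.3 and 29.6 CPM in Control. All 3 groups were apart, with Control lowest. Its log2 fold change against Control was 0.56 ± 0.051 for DNMT1 knockdown and 0.19 ± 0.053 for DNMT3B knockdown. The antisense gene ID2-AS1 covers 38 bases, 1.72% of the exon bases of ID2, and no source used here says whether counting used the strand. It was the only gene annotated over exons of a member.

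ATOH8, a helix-loop-helix transcription factor, had the lowest level per length in DNMT3B knockdown and Control and the widest gap between the knockdowns (chromosome 2, 85751344 to 85788066, plus strand). It had 92, 91 and 81 counts in DNMT1 knockdown, 27, 21 and 28 in DNMT3B knockdown and 96, 80 and 75 in Control. In CPM these were 3.8, 3.88 and 3.36 in DNMT1 knockdown, 1.1, 1.13 and 1.07 in DNMT3B knockdown and 2.86, 2.98 and 2.41 in Control. The groups did not overlap, and the DNMT3B knockdown libraries stood far below the rest. The log2 fold change was 0.42 ± 0.126 for DNMT1 knockdown against Control, -1.31 ± 0.171 for DNMT3B knockdown against Control and 1.74 ± 0.167 between the knockdowns, and 1.18% and 0.336% of tested genes had a larger absolute log2 fold change in the last pair of comparisons.

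**Figure D2:**
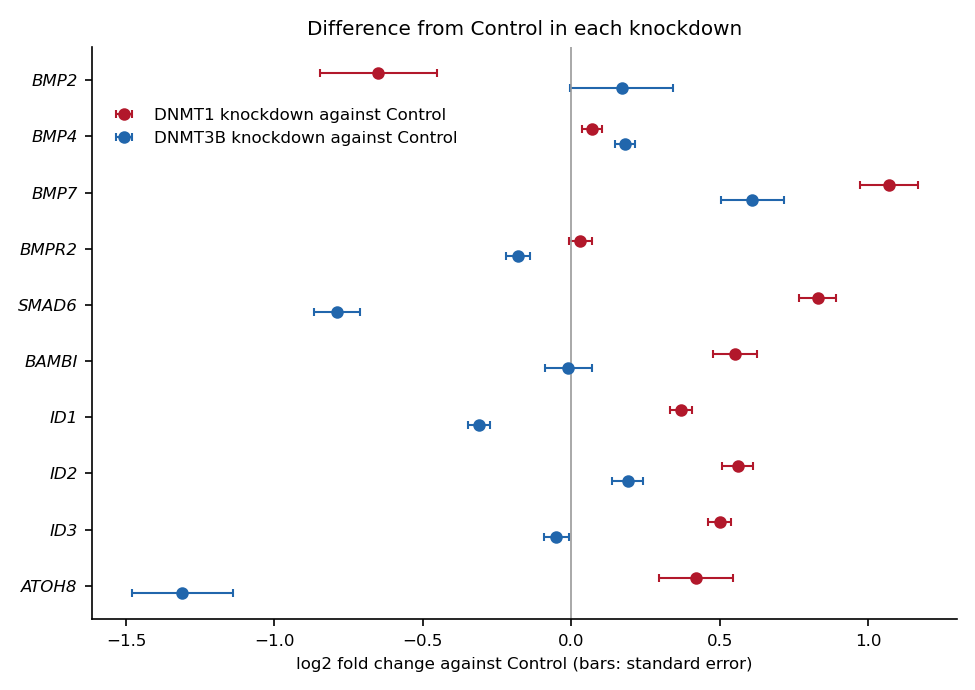
Log2 fold change of each of the 10 genes with its standard error from the edgeR fit, for DNMT1 knockdown and DNMT3B knockdown, each against Control. SMAD6, ID1 and ATOH8 have points well apart on both sides of 0, and BMPR2 and BMP4 lie closest to 0 in DNMT1 knockdown.

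Over the 10 members, the median log2 fold change was 0.46 in DNMT1 knockdown against Control, -0.03 in DNMT3B knockdown against Control and 0.51 in DNMT1 against DNMT3B knockdown, beside a median of 0 over all tested genes in each. In DNMT1 knockdown against Control 7 members were past the threshold of the fit and higher and 1, BMP2, was lower, where 41.8% of all tested genes were past it, 21% higher and 20.8% lower. In DNMT3B knockdown against Control 3 were higher (BMP4, BMP7, ID2) and 4 lower (SMAD6, ID1, ATOH8, BMPR2), where 47.7% of all genes were past it, 23.1% higher and 24.6% lower. Between the knockdowns all 10 were past it, 8 higher in DNMT1 knockdown and 2, BMP2 and BMP4, lower, where 45.2% of all genes were, 24.3% higher and 20.9% lower. Because these contrasts chose the members, the counts are a description and nothing is read from them. The same holds for the shares of genes with a larger absolute log2 fold change, given above only for BMP7, SMAD6 and ATOH8, which moved far. Such shares were as large as 95.5%, for BAMBI in DNMT3B knockdown against Control. The call of BMP2 in DNMT1 knockdown was lost without DNMT1 knockdown replicate 1, leaving 0 members lower. The count of members higher in DNMT1 knockdown was 6 with DESeq2 and without Control replicate 3, and 8 with no TMM scaling, with only the groups compared in the fit, and without DNMT3B knockdown replicate 2.

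The rest of the pathway was described from a list of 60 other BMP ligands, receptors, SMADs, antagonists, regulators, targets and ID partners. They were listed by role, with earlier results on these counts, SMAD7 among them, known. Of the 60, 37 had enough counts to be tested, each among all 16660 genes by edgeR's quasi-likelihood test with Benjamini-Hochberg adjustment, and called at an adjusted p below 0.05. In DNMT1 knockdown against Control 6 rose and 8 fell, 37.8% of those tested and near the 41.8% of all genes. In DNMT3B knockdown against Control 3 rose and 22 fell, 67.6% of those tested against 47.7% of all genes, and the median log2 fold change was -0.2. Between the knockdowns 19 were higher and 3 lower in DNMT1 knockdown, 59.5% of those tested against 45.2%, with a median of 0.16. Both knockdowns were compared with the same 3 Control libraries, so their fold changes share those values. The genes counted as rising in each knockdown against Control include ACVRL1, which passed the count filter through the knockdown libraries.

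**Figure D3:**
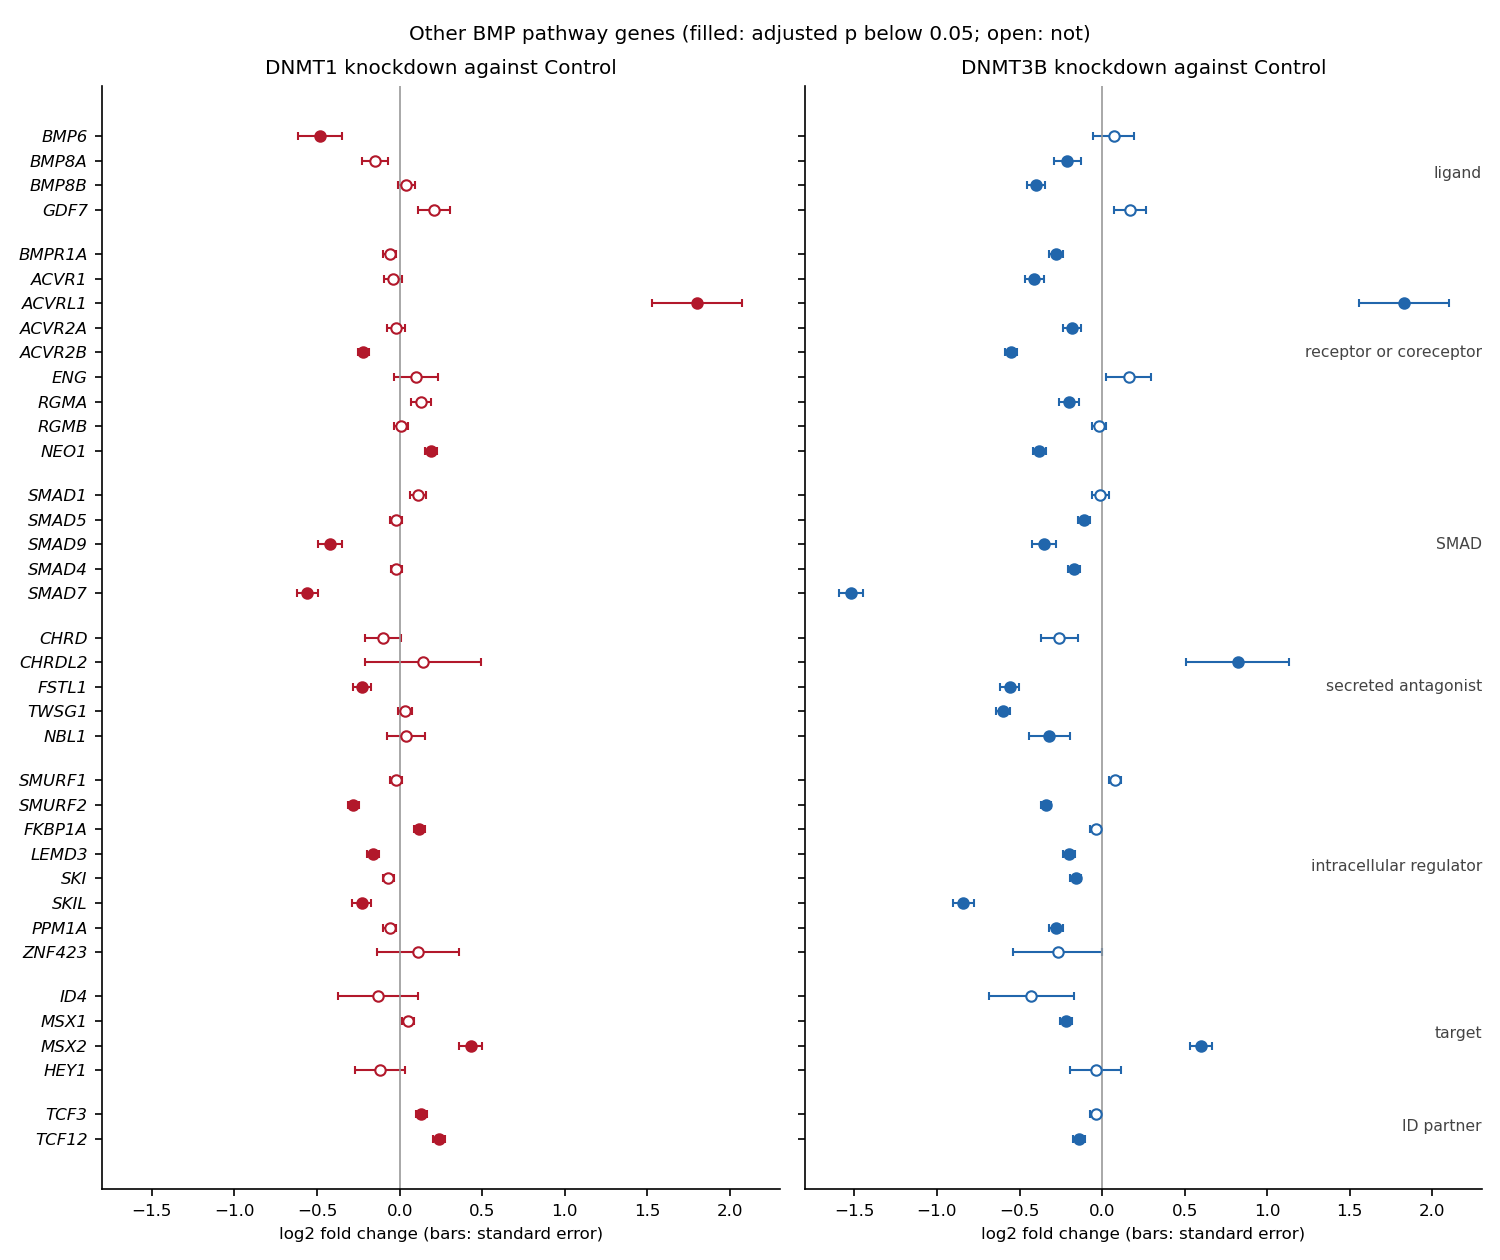
Log2 fold change against Control of the 37 tested genes of the wider BMP pathway, grouped by role, for DNMT1 knockdown and DNMT3B knockdown, with filled points for adjusted p below 0.05. Most DNMT3B knockdown points lie left of 0 and SMAD7 is the lowest of them at -1.52. ACVRL1, which had few counts in Control, is the highest in both knockdowns. It passed the count filter through the knockdown libraries, so its filled points are a description only.

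Among the SMADs, SMAD7, which inhibits both TGF-beta and BMP receptors, fell in both knockdowns. It had 13, 12.7 and 13.4 CPM in DNMT1 knockdown, 6.26, 6.89 and 7.01 CPM in DNMT3B knockdown and 19.6, 18.6 and 19.3 CPM in Control, 3 groups without overlap. The log2 fold change against Control was -0.56 ± 0.063 in DNMT1 knockdown (edgeR adjusted p = 1.25e-08) and -1.52 ± 0.073 in DNMT3B knockdown (edgeR adjusted p = 2.03e-17). SMAD6 and SMAD7, the paired inhibitory SMADs, thus lay on opposite sides of Control in DNMT1 knockdown and both below it in DNMT3B knockdown.

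SMAD9, a receptor-activated SMAD of the BMP branch, fell in both knockdowns, with 10.1, 10.2 and 9.84 CPM in DNMT1 knockdown, 10.6, 9.63 and 11.4 CPM in DNMT3B knockdown and 13.6, 13.2 and 13.7 CPM in Control (edgeR adjusted p = 1.75e-05 and 0.000178). SMAD4, the shared partner, had 127, 121 and 124 CPM in DNMT1 knockdown, 112, 110 and 112 CPM in DNMT3B knockdown and 128, 122 and 126 CPM in Control, and fell in DNMT3B knockdown (log2 fold change -0.17, edgeR adjusted p = 0.000134). Its libraries in DNMT1 knockdown overlapped with Control. SMAD5 averaged 137 CPM in DNMT1 knockdown, 129 in DNMT3B knockdown and 139 in Control, a call in DNMT3B knockdown (log2 fold change -0.11, edgeR adjusted p = 0.0152) that was lost without any one of Control replicate 1 (0.0807), Control replicate 2 (0.0852), DNMT3B knockdown replicate 1 (0.0563) and DNMT3B knockdown replicate 2 (0.0537), with a range of 0.00523 to 0.0852 over the alternatives. SMAD1 averaged 37.5, 34.4 and 34.7 CPM in DNMT1 knockdown, DNMT3B knockdown and Control and did not pass the test in any comparison, although it did between the knockdowns without DNMT3B knockdown replicate 3 (log2 fold change 0.16, edgeR adjusted p = 0.0233, against 0.12 and 0.0614 with it, and a range of 0.0233 to 0.226 over the alternatives).

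Of 9 receptors and coreceptors tested, 2 rose and 1 fell in DNMT1 knockdown, and 1 rose and 6 fell in DNMT3B knockdown. These were 33.3% and 77.8% of those tested, beside 41.8% and 47.7% of all genes. ACVRL1, a type I receptor best known from endothelium, was the riser in both. It had 1.32, 0.895 and 1.45 CPM in DNMT1 knockdown, 1.39, 1.18 and 1.19 CPM in DNMT3B knockdown and 0.328, 0.335 and 0.385 CPM in Control (log2 fold change 1.8 ± 0.272 and 1.83 ± 0.272). Its counts were low, 32, 21 and 35 in DNMT1 knockdown, 34, 22 and 31 in DNMT3B knockdown and 11, 9 and 12 in Control. ACVRL1 passed the count filter through the knockdown libraries, where it was high, so its values are a description and no p is given. The counts and shares of receptors given above still include it. The 5 endothelial markers summed to 2.23 to 2.53 CPM in DNMT1 knockdown, 4.4 to 5.11 CPM in DNMT3B knockdown and 2.89 to 3.39 CPM in Control, with CDH5 at or below 0.161 CPM. The higher sum in DNMT3B knockdown came mostly from VWF, which averaged 2.6 CPM against 1.2 in Control. PECAM1 was lower there, at 0.684 against 0.893 CPM. Any tie between these markers and ACVRL1 was not tested. Between the knockdowns the log2 fold change of ACVRL1 was -0.04 ± 0.215.

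NEO1, a receptor for repulsive guidance molecules that act as BMP coreceptors, was the other that rose in DNMT1 knockdown, with 112, 116 and 121 CPM in DNMT1 knockdown, 77.9, 76 and 79.3 CPM in DNMT3B knockdown and 102, 103 and 99.7 CPM in Control. It fell in DNMT3B knockdown (log2 fold change 0.19, edgeR adjusted p = 6.12e-05, in DNMT1 knockdown and -0.38, edgeR adjusted p = 6.48e-10, in DNMT3B knockdown). ACVR2B, a type II receptor, fell in both, averaging 111 CPM in DNMT1 knockdown, 88.5 in DNMT3B knockdown and 129 in Control (edgeR adjusted p = 5.13e-06 and 4.03e-14). The type I receptors ACVR1 and BMPR1A fell in DNMT3B knockdown, with means of 21.2 CPM against 28.1 in Control and 61 CPM against 74.1 in Control (edgeR adjusted p = 3.34e-07 and 1.27e-06), and did not pass the test in DNMT1 knockdown. The remaining receptor genes that fell in DNMT3B knockdown, named after their values were seen, were ACVR2A and RGMA, by 0.18 and 0.2 on the log2 scale.

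Of the 4 ligands tested, BMP6 fell in DNMT1 knockdown, with 2.31, 3.32 and 2.58 CPM in DNMT1 knockdown, 4.25, 3.93 and 3.75 CPM in DNMT3B knockdown and 3.61, 3.61 and 4.17 CPM in Control (log2 fold change -0.48, edgeR adjusted p = 0.00461). Among the ligands it was thus on the same side of Control as BMP2 in DNMT1 knockdown. BMP8B averaged 33.8, 24.8 and 32.8 CPM in DNMT1 knockdown, DNMT3B knockdown and Control and fell in DNMT3B knockdown (edgeR adjusted p = 1.56e-07). BMP8A, a near-identical copy, can share its reads, so the values of both are uncertain. Its call in DNMT3B knockdown (log2 fold change -0.21, edgeR adjusted p = 0.0366) was lost with DESeq2 (0.106) and without Control replicate 1 (0.0735), Control replicate 3 (0.116) or DNMT3B knockdown replicate 2 (0.246), with a range of 0.0227 to 0.246 over the alternatives. Among ligands and antagonists with too few counts to test, GDF5 had 7, 7 and 13 counts in DNMT1 knockdown, 10, 9 and 9 in DNMT3B knockdown and 4, 3 and 4 in Control. The antagonist NOG had 9, 9 and 5, then 5, 6 and 8, then 6, 3 and 6 counts in the same order, and GREM1, a crypt-base BMP antagonist, had at most 2 counts in any library.

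Of 5 secreted antagonists tested, TWSG1, a chordin partner that can hold BMPs away from their receptors, fell in DNMT3B knockdown, with 74.5, 68 and 74.2 CPM in DNMT1 knockdown, 47.9, 47.3 and 45.1 CPM in DNMT3B knockdown and 73.7, 70.7 and 68.2 CPM in Control (log2 fold change -0.6 ± 0.045, edgeR adjusted p = 1.02e-12). FSTL1, a follistatin-like protein that binds BMPs, fell in both, averaging 25.7 ± 1.66 CPM in DNMT1 knockdown, 20.3 ± 1.04 in DNMT3B knockdown and 30.1 ± 0.685 in Control (SD, n = 3; edgeR adjusted p = 0.00082 and 9.05e-10). CHRDL2, the only antagonist that rose in DNMT3B knockdown, had 11, 23 and 25 counts there against 19, 13 and 12 in Control, groups that overlapped (log2 fold change 0.82 ± 0.313, edgeR adjusted p = 0.0287), and was named after its value was seen. The CHRDL2 call was lost with DESeq2. NBL1 passed in DNMT3B knockdown (log2 fold change -0.32, edgeR adjusted p = 0.0316), a call lost with DESeq2 (0.112) and without Control replicate 1 (0.158) or DNMT3B knockdown replicate 3 (0.221), with a range of 0.0204 to 0.221 over the alternatives.

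Of 8 intracellular regulators, 1 rose and 3 fell in DNMT1 knockdown and 5 fell in DNMT3B knockdown. These were 50% and 62.5% of those tested, beside 41.8% and 47.7% of all genes. SKIL, a corepressor that binds SMADs, had 28.3, 28.3 and 27.4 CPM in DNMT1 knockdown, 16.8, 18.8 and 19.4 CPM in DNMT3B knockdown and 35.7, 32.5 and 30.5 CPM in Control, falling in both (log2 fold change -0.23, edgeR adjusted p = 0.00127, and -0.84 ± 0.062, edgeR adjusted p = 7.46e-13). SMURF2, a ubiquitin ligase for SMADs and receptors, averaged 351 CPM in DNMT1 knockdown, 338 in DNMT3B knockdown and 428 in Control and fell in both (edgeR adjusted p = 2.68e-08 and 5.23e-10). LEMD3, an inner nuclear membrane protein that binds SMADs, fell by 0.16 on the log2 scale in DNMT1 knockdown and by 0.2 in DNMT3B knockdown (edgeR adjusted p = 0.000845 and 3.56e-05), and PPM1A, a phosphatase that acts on SMADs, fell by 0.28 in DNMT3B knockdown (edgeR adjusted p = 1.75e-06). FKBP1A, which keeps type I receptors inactive, was the one that rose in DNMT1 knockdown, by 0.12 on the log2 scale (edgeR adjusted p = 0.00309).

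Among 4 other target genes tested, the homeobox gene MSX2 rose in both knockdowns, with 19.8, 19.2 and 22.6 CPM in DNMT1 knockdown, 24.7, 21.5 and 22.9 CPM in DNMT3B knockdown and 15.4, 14.4 and 15.8 CPM in Control (log2 fold change 0.43, edgeR adjusted p = 4.74e-06, and 0.6, edgeR adjusted p = 6.68e-09). MSX1 averaged 158 CPM in DNMT1 knockdown, 132 in DNMT3B knockdown and 153 in Control and fell in DNMT3B knockdown (edgeR adjusted p = 1.34e-05). ID4, the fourth ID gene, averaged 0.765, 0.625 and 0.836 CPM in DNMT1 knockdown, DNMT3B knockdown and Control and did not pass the test. Of the ID partners, TCF12 rose in DNMT1 knockdown and fell in DNMT3B knockdown, with 144, 136 and 140 CPM, 114, 103 and 107 CPM, and 118, 120 and 118 CPM in DNMT1 knockdown, DNMT3B knockdown and Control (edgeR adjusted p = 3.77e-06 and 0.00308). TCF3 rose in DNMT1 knockdown, averaging 357 CPM against 326 in Control (edgeR adjusted p = 0.00197), and TCF4 had at most 3 counts in any library.

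In DNMT1 knockdown against DNMT3B knockdown, 19 of the 37 genes were higher, among them SMAD7 (log2 fold change 0.96 ± 0.08, edgeR adjusted p = 1.74e-11), TWSG1 (0.63, 5.42e-13), SKIL (0.61, 2.96e-09), NEO1 (0.58, 7.16e-14) and TCF12 (0.37, 9.71e-10). The 3 lower were BMP6 (log2 fold change -0.54, edgeR adjusted p = 0.00199), MSX2 (-0.17, 0.036) and SMURF1 (-0.1, 0.0336), which was named after its value was seen. Without DNMT1 knockdown replicate 1 or without DNMT3B knockdown replicate 3, only BMP6 stayed lower, so SMURF1 lost its call in both. The MSX2 call was lost in 5 alternatives, with adjusted p from 0.00564 to 0.21 over all of them: DESeq2 (0.0785) and leaving out DNMT1 knockdown replicate 1 (0.124) or 2 (0.19) or DNMT3B knockdown replicate 1 (0.21) or 3 (0.0645). Among the 19, the calls of SKI, a SMAD corepressor (log2 fold change 0.09, edgeR adjusted p = 0.0291, range over the alternatives 0.0143 to 0.109), and NBL1 (0.36, 0.0217, range 0.0102 to 0.155) were also lost in some alternatives, for NBL1 with DESeq2 and without DNMT1 knockdown replicate 1 or 2 or DNMT3B knockdown replicate 3, and for SKI when only the groups compared were fitted and without Control replicate 2, DNMT1 knockdown replicate 2 or 3, or DNMT3B knockdown replicate 2.

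Only 3 members had group means spanning at least 1 on the log2 scale, and for these the genes with the most similar profile were found among 13512 genes as the smallest root mean square (RMS) difference between centred log2 CPM values over the 9 libraries. For BMP7 (span 1.06) they were MAN1A1 (0.064), ZNF608 (0.069) and ARHGAP26 (0.072). For SMAD6 (span 1.6) they were LONRF2 (0.131), CA9 (0.166) and ITGB8 (0.179), and for ATOH8 (span 1.67) FOXP2 (0.156), ITGB8 (0.194) and SPOCK3 (0.203). ITGB8 was thus named for both SMAD6 and ATOH8. The profiles have only 3 group levels, so many genes can come close.

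RefSeq promoter windows, from 250 bases before to 50 after the start, were at hand for 8 of the members, 10 windows in all because BMP4 has 3. The observed-to-expected CpG ratio, which is near 1 where CpG sites have not been depleted, was 0.77 (ID1) to 1.05 (a BMP4 window), with a median of 0.957. Over all 35116 windows the median was 0.579 and the quartiles 0.229 and 0.856, and over 86 windows of 49 of the other pathway genes the median was 0.776. Of the members lower in DNMT3B knockdown, SMAD6, ATOH8, ID1 and BMPR2 had ratios of 0.84, 0.97, 0.77 and 0.87. Of those higher there, ID2 had 0.94 and the BMP4 windows 0.86, 1.05 and 1.00. ID3 and BAMBI, close to Control there, had 1.02 and 0.99, and BMP2 and BMP7 had no window. Whether the ratios bear on the changes was not tested. DNA methylation itself was not measured in these libraries.

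**Figure D4:**
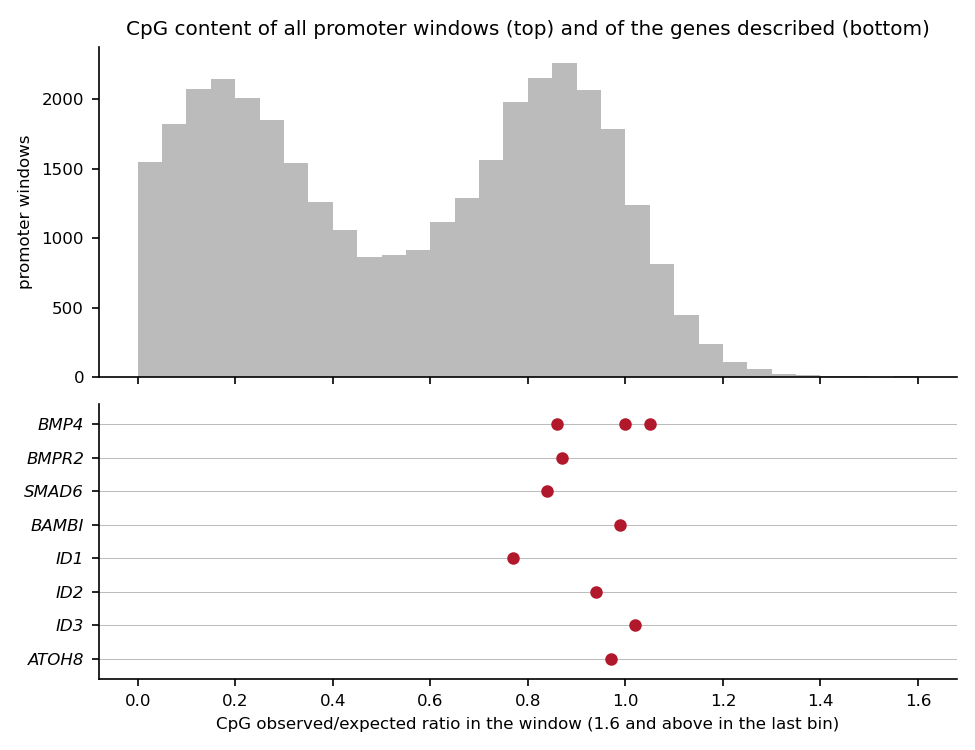
Observed-to-expected CpG ratio of RefSeq promoter windows, with the distribution over all 35116 windows and the 10 windows of the 8 members that had one. The member windows lie between 0.77 and 1.05, above the median of 0.579 over all windows.

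Motifs were searched on both strands of the same windows. GGCGCC was in 3 of the 10 member windows and 19.2% of all, GGAGCC in 7 and 36%, the SMAD box GTCT in 9 and 84%, and the E-box CANNTG, bound by the partners of ID proteins, in 5 and 68.7%. Among windows of the other pathway genes, 46.5% held GGAGCC. The BAMBI window held 4 matches of it and the SMAD6 window 3. The median GC content was 67% in the member windows and 58.7% over all, which was not allowed for. GTCTAGAC, which holds GTCT, was in 1 member window, that of SMAD6, starting 12 bases before the RefSeq start, and in 71 windows in all. The composite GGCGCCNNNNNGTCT was in 0 member windows and 0.103% of all. In the SMAD6 sequence shown above, GGAGCC started 124, 110 and 26 bases before the start, and in the ID1 sequence 248 and 14 bases before it.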

How the data were processed

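Unscaled counts of reads, by gene symbol, were deposited for 9 libraries of rRNA-depleted total RNA. GRCh38 (hg38), STAR, featureCounts and DESeq2 are named, per the submitters' processing notes. Versions, settings, annotation and use of strand: not given in the sources used here. All columns had a sample.

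Counts were analysed with edgeR 4.0.16 in R 4.3.3 (TMM, filterByExpr by group, quasi-likelihood test over all 9 libraries, 6 residual degrees of freedom, Benjamini-Hochberg adjustment over 16660 genes, threshold 0.05). The code was checked on simulated counts with the same spread for every gene and few changed genes. These data differ in both, so that check does not give the error rate here. CPM used TMM-scaled totals, and RPKM the GENCODE v29 exon length. A common biological coefficient of variation of 2.96% was fitted. Floors of 3 counts cover counting error only.

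The members, the pathway list and the marker lists were chosen with earlier results of these data known. Named were all members, DNMT1, DNMT3B, every SMAD, and, per comparison and role, up to 4 called pathway genes of at least 1 CPM by smallest adjusted p, of which some are given as counts only. Also named, after their values were seen, were the untested genes with counts, the marker genes, ID4, CHRDL2, ACVR2A, RGMA and SMURF1. Likeness was sought for members spanning at least 1 log2. Alternatives were DESeq2 1.42.0, other scaling and filters, a replicate block and leaving out each library. Same-numbered libraries did not deviate together, so the numbers were not used as pairs.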

Additional observations from a re-analysis of the deposited data

How the results depend on the processing

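All 480 alternative log2 fold changes of the members moved by less than the spread between libraries. Leaving out a single library can hardly move a group mean further than that, so for those alternatives nothing is read from it. BMP2 in DNMT1 knockdown against Control ranged from -0.87 to -0.46 when single libraries were left out, against -0.65. No called value among the members or among the 1248 for other named pathway genes changed direction. Of the latter, 25 lost and 4 gained a call. ID4, CHRDL2, ACVR2A, RGMA and SMURF1 were outside this check. Leaving out single libraries, members lower in DNMT1 knockdown against Control ranged from 0 to 1, and other pathway genes lower in DNMT1 against DNMT3B knockdown from 1 to 3 (1 without DNMT1 knockdown replicate 1 or without DNMT3B knockdown replicate 3). Other pathway genes that rose in DNMT3B knockdown against Control were 5 with no low-count filter and 2 with DESeq2, against 3, and ranged from 3 to 4 when single libraries were left out. DNMT1 in DNMT3B knockdown (log2 fold change 0.09, edgeR adjusted p = 0.0171) lost its call without Control replicate 1 (0.0804; range over the alternatives 0.0057 to 0.0804). With a replicate block the counts of other pathway genes were 6 higher and 8 lower, 3 and 22, and 19 and 3 in the 3 comparisons, and those of members 7 and 1, 3 and 4, and 8 and 2, as without it. The correlations of same-numbered libraries were -0.061 to 0.042, 0 of 9 over 0.1, so the numbers did not pair the libraries. Genes called among all tested were 6956, 7949 and 7534 in DNMT1 knockdown against Control, DNMT3B knockdown against Control and DNMT1 against DNMT3B knockdown, and 5718, 6706 and 6323 with DESeq2. Over the alternatives the median log2 fold change of all genes lay between -0.013 (no low-count filter, DNMT1 knockdown against Control) and 0.01 (no TMM scaling, DNMT3B knockdown against Control). Depth limits BMP2 and ATOH8 most, with down to 20 and 21 counts in a library. How the lines were made, and whether each knockdown used more than 1 hairpin, cannot be read from these libraries, so hairpin and target cannot be told apart.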
